A study of Mus musculus with 6 samples.

Results

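The 41 genes described here encode the enzymes that carry glucose and glycogen to pyruvate, reduce pyruvate to lactate or pass it to the mitochondrion as acetyl-CoA, and turn the citric acid cycle, together with the kinases that switch off the pyruvate dehydrogenase complex. They form a list of gene symbols of these pathways, drawn up with earlier results of these data known. All 41 were found among the 24946 named genes of each table, and all 41 passed the filter on low values, so every one was tested. Nts-Cre mice were used, and lateral septum RNA was profiled by viral-TRAP, in which an AAV-Introvert virus (named AAV5-Introvert-NBL10 in the sample labels and AAV-Introvert-EGFPL10a in the methods) makes a GFP-tagged ribosomal protein L10a in cells with Cre recombinase, and an antibody to GFP pulls down the tagged polysomes. IP is the RNA of that pulled-down fraction and Input the RNA saved from the same homogenate before the pull-down. There were 3 IP and 3 Input libraries, 1 of each from every one of 3 pools of 4 to 6 mice. The mice were labelled C57Bl6J, were 8 to 20 weeks old according to the methods, and were taken 3 or 4 weeks after the virus. Both fractions thus came from the same virus-injected Nts-Cre mice with no other treatment named in the labels, Cre followed the Nts gene, and only Cre cells that the virus reached could be tagged. Since tissue was pooled, the spread between libraries is that between pools and not between single mice.

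Glycolysis splits glucose in the cytosol and yields pyruvate, which lactate dehydrogenase turns into lactate or which enters mitochondria, where the pyruvate dehydrogenase complex makes acetyl-CoA. The citric acid cycle then oxidises the acetyl group, and malate dehydrogenases of cytosol and mitochondrion carry reducing power between both compartments. Several steps have alternative enzymes encoded by different genes (isozymes). In brain, glycogen is stored mainly in astrocytes, and aldolase C is a classical astrocyte-rich isozyme that some neurons such as cerebellar Purkinje cells also make.

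Each value is a normalized count, a read count divided by DESeq2 factors by the authors, without a logarithm. Library totals of these values were between 22781827 and 24958423 in IP and between 16828024 and 17129150 in Input, which corresponds to about 9894817 to 11015281 reads per IP library and 9318943 to 9809399 per Input library. Those read numbers take the commonest low value of a library as 1 read. They are rough, since 62.1 to 83.8% of low values and only about 20% of high values came within 0.1 of whole reads. As checks of the IP, Nts itself had 2251, 3346 and 1783 normalized counts in IP, against 80.04, 149.7 and 209.9 in Input, and Rpl10a, whose reads could also come from the tagged copy, had a log2 fold change of 3.13. All 7 genes of a lateral septum list had reads in all 6 libraries; their enrichment in IP is not counted as a check, since the list was drawn up with earlier results known. Every one of 12 astrocyte, 12 oligodendrocyte and 10 microglia markers was depleted in IP, with median log2 fold changes of -2.50, -2.54 and -2.60, and 8 of 12 pan-neuronal genes were higher and 2 lower. Lower too were 4 of 6 oligodendrocyte precursor, 4 of 10 endothelial and mural and 4 of 6 tested ependyma and choroid plexus markers. The rest of these did not pass the test. Of the glutamatergic genes 2 of 2 were lower, and of the GABAergic genes 3 of 3 were higher. None of these markers was at 0 in every IP library. The astrocyte list summed to between 4709 and 6635 in IP and between 23478 and 28507 in Input, and the oligodendrocyte list to between 14737 and 23462 in IP and between 106559 and 151972 in Input. A choroid plexus and ependyma list varied between pools, from 215 to 2047 in IP and from 610 to 14240 in Input, highest in pool 3; without pool 3, 19 of the 41 genes were higher and 8 lower, beside 26.6% and 25.4% of all tested genes.

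In the deposited scaling more of these genes were higher than lower in IP, mostly by less than 2-fold. With equal library totals 7 were higher and 21 lower, much like all tested genes, of which 17.3% were higher and 53.1% lower. A small set of isozymes and glycogen genes was strongly lower under both scalings. Of the 41 genes, 22 (53.7%) were higher in IP at an adjusted p under 0.05 by limma, 10 (24.4%) were lower and 9 did not pass the test. Across all 14859 tested genes, 31.4% were higher and 32.2% lower. With a change of more than 2-fold required as well, 2 of the 41 were enriched, Mdh2 and Suclg1, beside 12.6% of all tested genes, and 6 were depleted, Aldoc, Pdk4, Suclg2, Pygb, Pygm and Phka1, beside 17.2% of all. Fold changes ran from -5.30 to 1.04 on the log2 scale, with a median of 0.24 over the 41 genes and of -0.061 over all tested genes. Pdk4 and Phka1 passed the filter through their Input values and so had to be lower, and with 10 required in all 6 libraries 38 of the 41 were tested, 22 higher and 8 lower, beside 35.0% and 31.3% of the genes that passed this filter. The IP and Input values did not overlap for 34 of the 41, and for 69.6% of all tested genes. Because these are bulk fractions, fewer cells of a type and less RNA per cell cannot be told apart.

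The deposited values summed higher in every IP library, and the calls depended on the scaling between libraries. With the values scaled to equal library totals, the median of all tested genes moved from -0.061 to -0.54, and 7 of the 41 were higher and 21 lower, beside 17.3% and 53.1% of all tested genes. Relative to the all-gene median, the 41 genes lay 0.31 higher in the deposited scaling. Rescaling the libraries shifts all genes about alike and can hardly move this distance, whereas a correction for transcript length took it to 0.069. The summed values of the 41 genes made up 2.48%, 2.52% and 2.51% of the library in IP and 2.49%, 2.45% and 2.48% in Input. As a share of all normalized counts, the sum of the 41 genes was thus close in both fractions. The most abundant genes, such as Aldoa and Mdh1, weigh most in this sum. Across these calls and 19 alternative settings, 7 genes were higher each time: Aldoa, Tpi1, Pgam1, Idh3b, Suclg1, Mdh1 and Mdh2. These are also the 7 that were higher under library size scaling, where the calls of the other 15 higher genes were lost or turned. A further 7 were lower in every fit that tested them, namely Aldoc, Pdk4, Ogdh, Suclg2, Pygb, Pygm and Phka1. Of these, Pdk4 and Phka1 passed the filter through Input, so their direction was fixed beforehand.

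**Figure D1:**
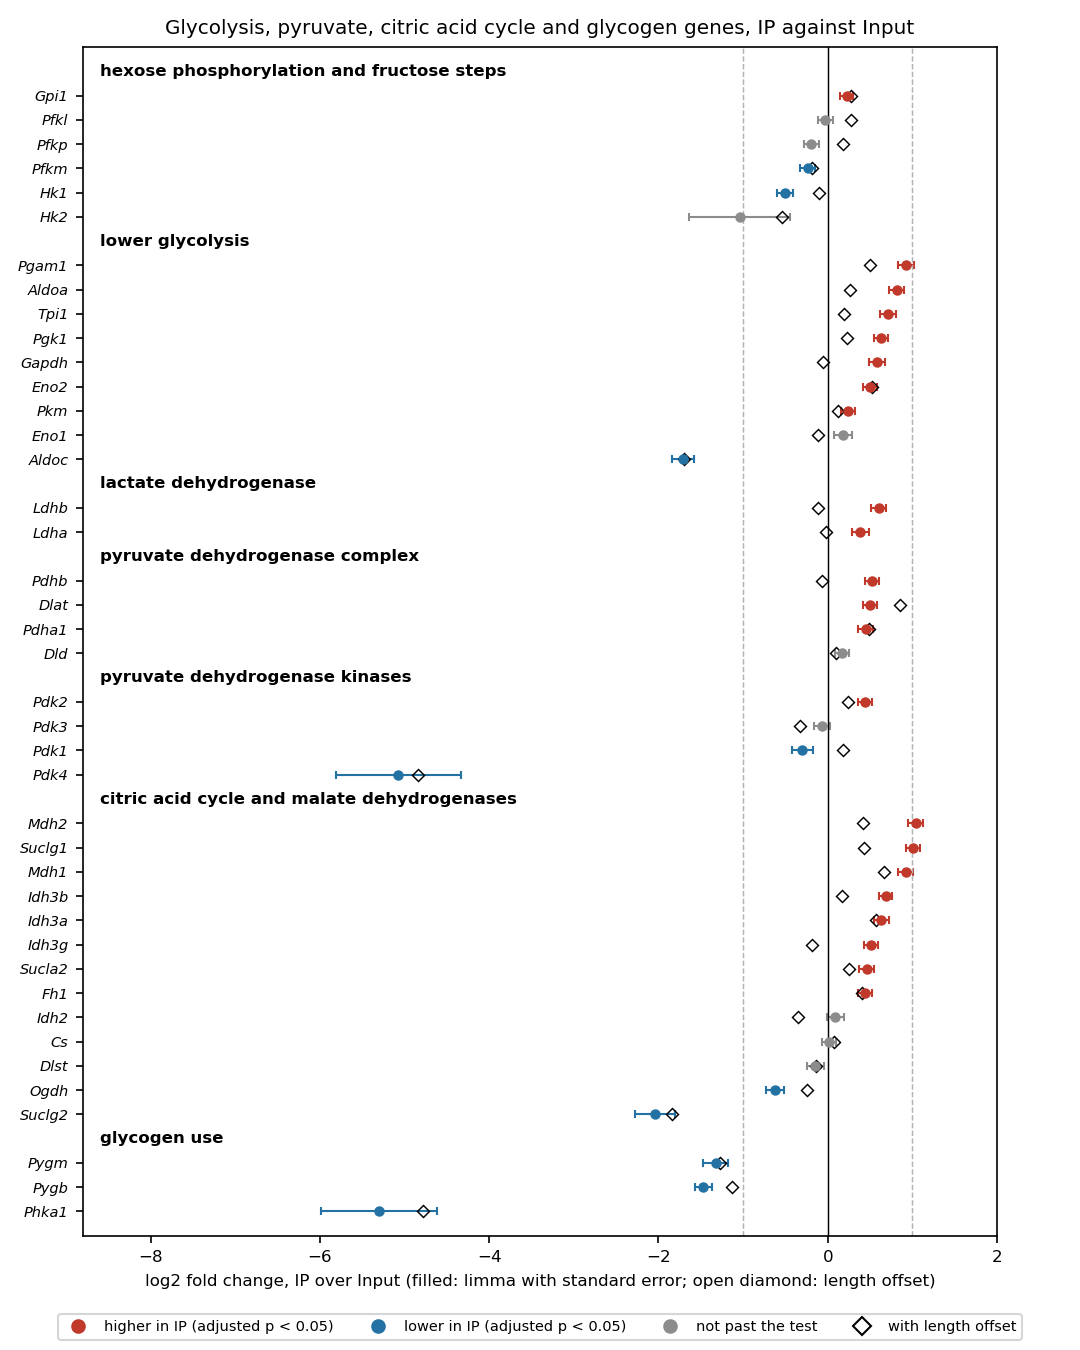
Log2 fold change of IP over Input for each of the 41 genes, grouped by role, with the limma standard error (filled points; red higher, blue lower, grey not past an adjusted p of 0.05) and the value after a transcript length offset (open diamonds). Most lower glycolysis and citric acid cycle genes lie between 0 and 1.04, while Phka1 (-5.30) and Pdk4 (-5.08) lie far to the left; under library size scaling 11 genes change sign, and 10 do with the length offset.

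Of the 6 genes that phosphorylate hexose and convert it to fructose bisphosphate, 1 was higher, 2 were lower and 3 did not pass, with a median log2 fold change of -0.22, or 0.039 after a correction for transcript length (the length offset) and -0.70 under library size scaling. Of all tested genes, 31.4% were higher and 32.2% lower. Hk1, the main brain hexokinase, which phosphorylates glucose at the mitochondrial surface, had 2903, 3129 and 3291 normalized counts in IP, against 4477, 4016 and 4757 in Input. No IP library reached the lowest Input library, and Hk1 was lower at a log2 change of -0.51 (standard error 0.092, limma adjusted p = 0.0004), which became -0.11 with the length offset and then did not pass. Hk2, the inducible hexokinase, had 13.6, 23.0 and 4.48 in IP and 24.3, 27.5 and 22.2 in Input. It was near the floor of both fractions, with about 18 reads over the IP libraries and 42 over the Input libraries, and the scaled IP level was 55.1% of Input (95% exact interval 29.8 to 97.8%, counting error only). Its log2 fold change of -1.04 did not pass (limma adjusted p = 0.14), although it did without IP replicate 2 (-1.51, adjusted p = 0.042) and under library size scaling (-1.49, adjusted p = 0.041), and without IP replicate 3 the change was -0.45 (adjusted p = 0.43).

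Gpi1, which interconverts glucose and fructose 6-phosphate, averaged 12981 ± 255 in IP and 11128 ± 673 in Input (SD, n = 3 pools each). It was higher by 0.22 (limma adjusted p = 0.028), but -0.26 under library size scaling, -0.22 under pan-neuronal scaling and -0.0019 under upper quartile scaling. That call was lost in 6 of 9 leave-outs, where the change stayed between 0.19 and 0.27 with adjusted p up to 0.12, and 25.3% of its 50-base stretches occur in other transcripts. Phosphofructokinase sets the pace of glycolysis and has 3 subunit genes. Pfkl, the liver-type subunit, had 5579, 5687 and 6641 in IP and 6006, 6331 and 5899 in Input, and the groups overlapped (log2 fold change -0.030, limma adjusted p = 0.78). Pfkm, the muscle-type subunit, had 3614, 4249 and 3888 in IP and 4568, 4701 and 4555 in Input. All 3 IP values lay under the Input values, and Pfkm was lower at a log2 change of -0.24 (limma adjusted p = 0.029), a call that 7 of 9 leave-outs lost, with adjusted p up to 0.15. Pfkp, the platelet-type subunit, had 4925, 5443 and 5464 in IP and 6300.3, 5671 and 6131 in Input, without overlap, and its change of -0.19 did not pass (limma adjusted p = 0.062). About 17.1% of the 50-base stretches of the Pfkp transcript are shared with the overlapping Pitrm1, so its reads are uncertain. Under library size scaling all 3 subunit genes were lower, with -0.51, -0.72 and -0.68 for Pfkl, Pfkm and Pfkp. With the length offset Pfkl and Pfkp were higher, at 0.27 and 0.18 (limma adjusted p = 0.01 and 0.031). Pfkm stayed lower with the offset, at -0.19 (limma adjusted p = 0.046).

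Lower glycolysis, from aldolase to pyruvate kinase, held 7 higher genes of 9, with 1 lower and 1 not past the test, and a median log2 fold change of 0.58, or 0.19 after the length offset and 0.0995 under library size scaling. Among all tested genes 31.4% were higher and 32.2% lower. The contrast within this segment was between both aldolases, which cut fructose 1,6-bisphosphate into triose phosphates. Aldoa, the ubiquitous isozyme, had 115372, 106972 and 110912 normalized counts in IP, against 64529.9, 62322 and 62202 in Input. Every IP library was far over every Input library, and the log2 fold change was 0.82 (standard error 0.088, limma adjusted p = 4.7e-06). For Aldoa the change was 0.26 with the length offset and 0.33 under library size scaling. Aldoc had 7168, 9561 and 6331 in IP, against 23955, 27467 and 23014 in Input. The groups were widely apart in the other direction, at a log2 change of -1.71 (standard error 0.13, limma adjusted p = 2.9e-07) that was -1.69 with the length offset and -2.19 under library size scaling. All 12 astrocyte markers were lower as well, and their part in the Aldoc result was not tested. For Aldoa, 13.5% of the 50-base stretches are shared with other transcripts, and for Aldoc none. Per kilobase of transcript, Aldoc made up 3.95%, 5.59% and 3.64% of both aldolases in IP and 19.7%, 22.6% and 19.7% in Input.

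The 2 aldolase transcripts can be set side by side. On mm10, Aldoa spans chr7:126795234-126800751 on the minus strand and Aldoc chr11:78322968-78327781 on the plus strand. Over 1089 aligned coding bases they were 75.7% identical, the longest identical run was 26 bases and no 50-base stretch was shared. The following 90 coding bases, read from GENCODE M21 transcripts, surround that longest run and are shown to let the isozymes be compared, with the 12 differing bases in capitals. They are coding bases 649 to 738 of Aldoa, from exons within chr7:126796265-126796648, and 487 to 576 of Aldoc, from exons within chr11:78325156-78325364, each written 5′ to 3′ on the coding strand.
Aldoa: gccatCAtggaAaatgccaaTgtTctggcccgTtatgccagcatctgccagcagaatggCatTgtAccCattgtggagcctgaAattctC
Aldoc: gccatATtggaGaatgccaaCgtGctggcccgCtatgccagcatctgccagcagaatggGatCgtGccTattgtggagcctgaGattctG

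Tpi1, which interconverts the triose phosphates, averaged 32933 ± 2183 in IP and 20091 ± 1320.4 in Input (SD, n = 3 pools each), higher on the log2 scale by 0.71 (limma adjusted p = 1.7e-05). Its change was 0.19 with the length offset and 0.23 under library size scaling. Pgam1, which moves the phosphate of phosphoglycerate, had 35515, 30542 and 33018 in IP, against 18756, 17135 and 16310.4 in Input. The groups lay far apart, at a log2 change of 0.92 (standard error 0.092, limma adjusted p = 2.2e-06). For Pgam1 this was 0.50 with the length offset and 0.44 under library size scaling. Pgk1, the first ATP-forming step, was higher by 0.63 (limma adjusted p = 2.5e-05) and Gapdh, which oxidises glyceraldehyde 3-phosphate, by 0.58 (limma adjusted p = 9.8e-05). Gapdh turned to -0.059 with the length offset. Both are uncertain, since 82.5% of the 50-base stretches of Gapdh and 68.0% of those of Pgk1 also occur in transcripts of other genes, and the share was 41.5% for Pgam1 and 34.4% for Pkm. Pkm, pyruvate kinase, averaged 46991 ± 437 in IP and 39692 ± 1248 in Input, and was higher by 0.24 (limma adjusted p = 0.02), but -0.24 under library size and -0.20 under pan-neuronal scaling, and 5 of 9 leave-outs lost the call.

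The enolases convert phosphoglycerate to phosphoenolpyruvate. Eno2, the neuron-specific enolase, had 27661, 29803 and 27978 normalized counts in IP, against 21006, 19449 and 19952 in Input. All IP libraries were over all Input libraries, and the change was 0.50 (standard error 0.082, limma adjusted p = 0.00017), with 0.52 after the length offset and 0.018 under library size scaling. Eno1, the ubiquitous enolase, had 8741, 6906 and 8389.5 in IP, against 6345, 7278 and 7542 in Input. These overlapped (log2 fold change 0.18, limma adjusted p = 0.15), and without IP replicate 2 the change was 0.28 with an adjusted p of 0.021, and without pool 2 it was 0.31 (adjusted p = 0.041). Without pool 1 it was 0.039 (adjusted p = 0.77), and under library size scaling Eno1 was lower, at -0.30 (adjusted p = 0.012). Eno1 is uncertain in these tables, because 70.5% of its 50-base stretches are shared with Eno1b. Eno1b carried most of the counts, so that Eno1 made up only 18.9 to 23.9% of the sum of both in IP and 19.97 to 23.2% in Input. Summed, they had 36593, 36503 and 36271 in IP, against 31775, 34719 and 32464 in Input, a log2 difference of 0.15 (p = 0.1 by a two-sided exact permutation test, its lower limit with 3 against 3); this sum was chosen after the values had been seen.

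Both lactate dehydrogenase subunits were higher in the deposited scaling. Ldhb, the subunit that favours turning lactate into pyruvate, had 41139, 34731 and 37218 normalized counts in IP, against 23387, 25898 and 25182 in Input. The groups did not overlap, at a log2 change of 0.60 (standard error 0.092, limma adjusted p = 9.5e-05) that was -0.12 after the length offset and 0.12, no longer past the test, under library size scaling. Ldha, the subunit that favours making lactate, had 16989, 14914 and 15799 in IP, against 13582, 12334 and 10724 in Input. It too did not overlap, with 0.39 (standard error 0.099, limma adjusted p = 0.0044), but -0.019 with the length offset, -0.097 under library size and -0.055 under pan-neuronal scaling, and without pool 3 it was 0.30 (adjusted p = 0.095). Their transcripts share 27.0% (Ldhb) and 16.6% (Ldha) of 50-base stretches with other genes.

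**Figure D2:**
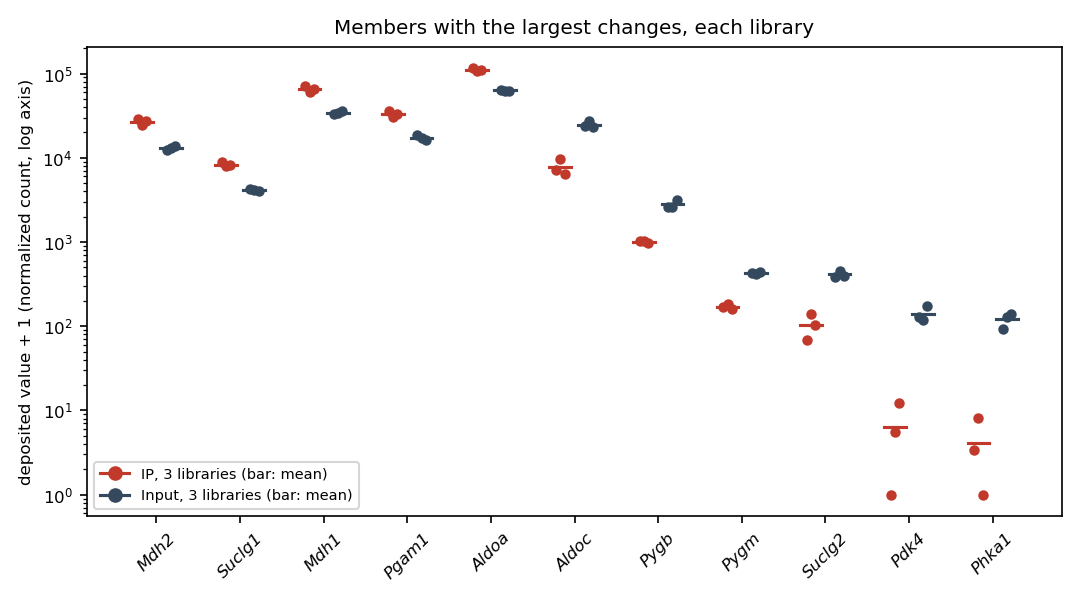
Deposited normalized count plus 1, on a log axis, for the 5 genes with the highest and the 6 with the lowest fold changes that passed the test, with the 3 IP libraries in red left of the 3 Input libraries in dark blue and bars at the means. Aldoa in IP lies between 106972 and 115372 and Aldoc between 6331 and 9561, and Pdk4 and Phka1 come down to 0 in 1 IP library each.

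The pyruvate dehydrogenase complex, the gate from glycolysis to the citric acid cycle, had 3 of 4 subunit genes higher and none lower, with a median log2 fold change of 0.47, or 0.29 after the length offset and -0.0083 under library size scaling. The shares of all tested genes were 31.4% higher and 32.2% lower. Pdha1 and Pdhb encode the decarboxylase subunits, and Dlat the acetyltransferase. Pdha1 averaged 7995 ± 456 in IP and 5859.6 ± 378 in Input (SD, n = 3 pools each), higher by 0.45 (limma adjusted p = 0.00057), though -0.034 under library size scaling. Pdhb was higher by 0.52 (limma adjusted p = 0.00014), though -0.062 after the length offset and 0.037, no longer past the test, under library size scaling. Dlat, with the longest transcript of the complex at 4035 bases, averaged 4070.4 ± 81.1 in IP and 2885 ± 239 in Input, and its 0.50 (limma adjusted p = 0.0003) was 0.86 after the offset but 0.017 under library size and 0.059 under pan-neuronal scaling, which did not pass (adjusted p = 0.87 and 0.62). Dld, the dehydrogenase subunit that the 2-oxoglutarate complex also uses, had a change of 0.17 that did not pass (limma adjusted p = 0.084), and it was lower under library size scaling (-0.31, adjusted p = 0.0057). The reads of Pdha1 are uncertain, as 16.9% of its 50-base stretches are shared, mostly with the overlapping Map3k15, and so are those of Pdhb with 30.3% shared.

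The kinases that inactivate the complex went different ways, with 1 higher, 2 lower and 1 not past the test. For all tested genes the shares were 31.4% higher and 32.2% lower. Pdk2, the most abundant per kilobase in both fractions, had 6033, 5734 and 6391 normalized counts in IP, against 4279, 4683 and 4457 in Input. All IP values were over the Input values, with a change of 0.44 (standard error 0.083, limma adjusted p = 0.00055), but -0.047 under library size and -0.0044 under pan-neuronal scaling. Pdk3 had 1172, 1096 and 1176 in IP, against 1181, 1283 and 1140.1 in Input, and overlapped (log2 fold change -0.065, limma adjusted p = 0.58). Under library size, pan-neuronal and upper quartile scaling Pdk3 was lower, at -0.55, -0.50 and -0.29 (limma adjusted p = 0.00029, 0.0012 and 0.017), and likewise with the length offset (-0.32, adjusted p = 0.006). Pdk1, a target of hypoxia signalling, had 540.3, 636 and 638 in IP, against 835, 685 and 719 in Input. No IP value reached the Input values, but the call of lower at -0.30 was marginal: the limma adjusted p was 0.048, 0.054 with the pool as a block, over 0.05 in 8 of 9 leave-outs, and the change was 0.18 with the length offset.

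Pdk4, the kinase induced by fasting and fatty acids, was close to the floor in IP. Having passed the filter through its Input values, it had to be lower. It had 0, 4.58 and 11.4 normalized counts in IP, against 127, 118 and 173 in Input. In reads this is about 7 over the 3 IP libraries and 238 over the 3 Input libraries, so that the scaled IP level was 3.78% of the Input level (95% exact interval 1.503 to 7.91%, counting error only). The log2 fold change was -5.08 (standard error 0.74, limma adjusted p = 6.2e-05), between -5.87 and -4.06 when IP replicate 1 or 3 was left out, alone or with its pool. It is a mean over logarithms after 1 was added. The differences by pool were -7.00, -4.42 and -3.81, and the first comes from the IP library at 0 and rests on the added 1. The astrocyte, oligodendrocyte and microglia lists were depleted too, and their part in the Pdk4 result was not tested. As a share of the family per kilobase, Pdk4 made up 0%, 0.041% and 0.093% in IP and 1.37%, 1.19% and 1.83% in Input, and Pdk2 80.3%, 79.9% and 80.7% in IP and 71.6%, 73.0% and 73.2% in Input.

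The citric acid cycle, with both malate dehydrogenases, had 8 of 13 genes higher, 2 lower and 3 not past the test, and a median log2 fold change of 0.46, or 0.17 after the length offset and -0.023 under library size scaling. Among all tested genes, 31.4% were higher and 32.2% lower. In the deposited scaling Mdh2 and Suclg1 had the largest increases of the group, but with the length offset Mdh1 (0.67) and Idh3a (0.57) lay over Mdh2 (0.42) and Suclg1 (0.43). Mdh2, the mitochondrial enzyme that closes the cycle, had 29233, 24324 and 27274 normalized counts in IP, against 12510.0, 13042 and 13661 in Input. Its lowest IP library was well over its highest Input library, with a change of 1.04 (standard error 0.091, limma adjusted p = 7.4e-07). Mdh1, the cytosolic enzyme of the malate-aspartate shuttle, had 70440.0, 59879 and 65496 in IP, against 33471, 34178 and 35493 in Input. It was set apart as widely, at 0.92 (standard error 0.091, limma adjusted p = 2.2e-06), 0.67 after the length offset and 0.44 under library size scaling. Suclg1, the alpha subunit shared by both succinyl-CoA ligases, had 8839, 7903 and 8102 in IP, against 4244, 4099.6 and 4025 in Input. It was higher by 1.00 (standard error 0.082, limma adjusted p = 4.2e-07). Mdh2 and Suclg1 pass the 2-fold threshold only narrowly: without IP replicate 1 neither did, nor without pool 1, and without Input replicate 3 only 1 of them did, with values over the 9 leave-outs of 0.95 to 1.11 for Mdh2 and 0.96 to 1.04 for Suclg1. Under library size, upper quartile and pan-neuronal scaling and with the length offset, 0 of the 41 genes were enriched.

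The beta subunit decides which nucleotide succinyl-CoA ligase makes, and here its genes diverged. Sucla2, the ATP-forming subunit, had 8046, 7179 and 8497 normalized counts in IP, against 5885, 5626 and 5704 in Input. The groups were apart, with 0.46 (standard error 0.086, limma adjusted p = 0.00049), though -0.023 under library size scaling. Suclg2, the GTP-forming subunit, had 66.9, 140.0 and 102 in IP, against 383, 457 and 391.89 in Input. Every IP library lay far under Input, at -2.04 (standard error 0.24, limma adjusted p = 9.6e-06), -1.84 with the length offset and -2.52 under library size scaling. Per kilobase, Suclg2 made up 0.531%, 1.24% and 0.765% of both beta subunits in IP and 4.00%, 4.95% and 4.22% in Input. A share of 21.8% of its 50-base stretches also occurs in another annotated transcript, Gm15163. The depleted glial lists moved the same way as Suclg2, and their part in it was not tested.

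The NAD-dependent isocitrate dehydrogenase, which releases the first carbon dioxide of the cycle, was higher in all of its subunits in the deposited scaling, and under library size scaling only Idh3b remained past the test (0.20). Idh3a, the catalytic subunit, averaged 11873 ± 394 in IP and 7657 ± 543 in Input (SD, n = 3 pools each), higher by 0.63 (limma adjusted p = 2.8e-05). Idh3b was higher by 0.68 (limma adjusted p = 1e-05) and Idh3g by 0.51 (limma adjusted p = 0.00018), the last being -0.18 after the length offset. Idh2, the NADP-dependent mitochondrial enzyme, was at 1614, 1474 and 1435 in IP and 1304, 1479 and 1467 in Input, which overlapped (log2 fold change 0.090, limma adjusted p = 0.44), and Idh2 was lower under library size scaling (-0.39, adjusted p = 0.0026) and with the length offset (-0.35, adjusted p = 0.004). Fh1, fumarase, averaged 2537 ± 41.4 in IP and 1866 ± 53.7 in Input, higher by 0.44 (limma adjusted p = 0.00051), though -0.039 under library size scaling. Cs, citrate synthase, which brings acetyl-CoA into the cycle, had a change of 0.011 (standard error 0.082, limma adjusted p = 0.92) and lay at 5638 ± 168 in IP and 5601 ± 307 in Input. Under library size, pan-neuronal and upper quartile scaling Cs was lower, at -0.47, -0.43 and -0.21 (limma adjusted p = 0.00034, 0.00075 and 0.029).

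The 2-oxoglutarate dehydrogenase complex went the other way or did not pass. Ogdh, its decarboxylase, had 4808, 5324 and 6251 normalized counts in IP, against 7724, 8165 and 9212 in Input. No IP library reached the Input libraries, and Ogdh was lower at a log2 change of -0.62 (standard error 0.11, limma adjusted p = 0.00025), -0.24 with the length offset. Dlst, its succinyltransferase, averaged 1877 ± 197 in IP and 2073 ± 107 in Input with a change of -0.15 that did not pass (limma adjusted p = 0.21), but did without IP replicate 1 (-0.23, adjusted p = 0.04). Under library size, pan-neuronal and upper quartile scaling Dlst was lower, at -0.63, -0.59 and -0.37 (limma adjusted p = 7e-05, 0.00018 and 0.004).

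All 3 genes of glycogen use were depleted, with a median log2 fold change of -1.47, or -1.28 after the length offset and -1.95 under library size scaling. Of all tested genes 17.2% were depleted. Phka1 passed the filter through its Input values and so had to be lower. Pygb, the brain-type glycogen phosphorylase, which frees glucose 1-phosphate from glycogen, had 1022, 1025 and 969 normalized counts in IP, against 2622, 2629 and 3124 in Input. The IP libraries were close to each other and all far under Input, at -1.47 (standard error 0.099, limma adjusted p = 1e-07). Pygm, the muscle-type phosphorylase, had 169, 181 and 157 in IP, against 422, 416 and 434 in Input. It changed alike, at -1.32 (standard error 0.15, limma adjusted p = 6e-06). Phka1, a regulatory subunit of the kinase that activates phosphorylase, had 2.36, 7.06 and 0 in IP, against 90.6, 129 and 139 in Input. In reads this was about 4 over the IP libraries and 203 over the Input libraries, so the scaled IP level was 2.53% of Input (95% exact interval 0.683 to 6.58%, counting error only), and the log2 fold change was -5.30 (standard error 0.68, limma adjusted p = 2.2e-05), between -6.02 and -4.39 when IP replicate 2 or 3 was left out, alone or with its pool. The 12 depleted astrocyte markers, with a median of -2.50, moved the same way as these 3 genes, and their part in it was not tested.

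Ratios of alternative genes within a library do not depend on the scaling between libraries, apart from the 1 added to each value, which matters near 0. In 12 such pairs, 7 had no overlap between IP and Input, each at p = 0.1 by a two-sided exact permutation test, the lower limit of that test with 3 against 3 (Benjamini-Hochberg p = 0.171), so none could pass by it. The widest differences were those of Pdk4, Aldoc and Suclg2. The log2 ratio of Pdk4 to Pdk2 was -12.56, -10.00 and -9.01 in IP and -5.06, -5.30 and -4.68 in Input, a difference of -5.51 (standard error 1.07). The -12.56 comes from the IP library with Pdk4 at 0 and rests on the added 1. For Aldoc over Aldoa it was -4.01, -3.48 and -4.13 in IP and -1.43, -1.18 and -1.43 in Input, a difference of -2.53 (standard error 0.22). For Suclg2 over Sucla2 the ratio was -6.89, -5.67 and -6.36 in IP and -3.94, -3.62 and -3.86 in Input, a difference of -2.50 (standard error 0.37). For Aldoc and Suclg2, the isozyme that Input held less of was scarcer still in IP, in every pool. Pdk4 moved the same way, but it passed the filter through its Input values, so its direction was fixed beforehand.

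The remaining pairs without overlap differed less. Pdk1 over Pdk2 differed by -0.74, Pdk3 over Pdk2 by -0.50, Mdh1 over Mdh2 by -0.12 and Pygm over Pygb by 0.14, and the last of these turned to -0.15, and Mdh1 over Mdh2 to 0.25, with the length offset. The other 5 overlapped, with exact permutation p from 0.2 to 0.7, two-sided: Hk2 over Hk1 (-0.53), Pfkl over Pfkm (0.21), Pfkp over Pfkm (0.044), Eno1 over Eno2 (-0.32) and Ldhb over Ldha (0.22). For the enolases the groups no longer overlapped once Eno1b was added to Eno1 (difference -0.35).

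**Figure D3:**
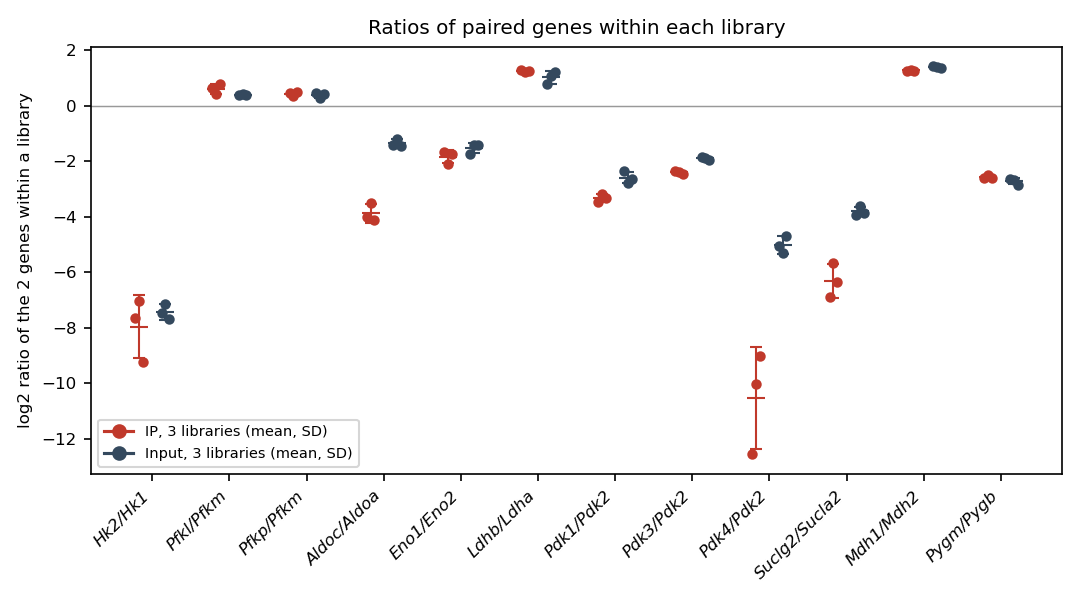
Log2 ratio of the first to the second gene of 12 pairs within each library, from values plus 1, with the 3 IP libraries (red) left of the 3 Input libraries (dark blue) and mean and SD as bars. The ratios Aldoc/Aldoa (-4.13 to -3.48 in IP and -1.43 to -1.18 in Input), Suclg2/Sucla2 and Pdk4/Pdk2 lie lower in every IP library than in any Input library, and the others differ less. Pdk4 passed the filter through its Input values, so its direction was fixed beforehand.

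Of 70 further genes of the same pathways, all found in the tables, 61 were tested: 16 were higher in IP, 24 lower and 21 not past the test, with 8 enriched and 12 depleted, beside 31.4% higher, 32.2% lower, 12.6% enriched and 17.2% depleted among all tested genes. Those of glycogen use and synthesis were mostly lower, 10 of 14 with 1 higher and a median log2 fold change of -0.71. The 15 tested genes of sugar phosphates and glycolysis held 5 higher and 3 lower, the 12 of pyruvate 4 and 4, the 9 of the citric acid cycle 3 and 3, the 5 of shuttles 1 and 3, and the 6 of the pentose phosphate pathway 2 and 1. By level, Sdha and Sdhb, subunits of succinate dehydrogenase, were the most abundant. Sdhb averaged 16847 ± 1233 in IP and 7391 ± 209.7 in Input and was higher by 1.19 (limma adjusted p = 1.4e-07), whereas Sdha had a change of -0.051 (limma adjusted p = 0.62). The change of Sdhb was 0.35 with the length offset and 0.70 under library size scaling. Sdha was lower under library size scaling, at -0.53 (limma adjusted p = 0.00012). Mpc2, a subunit of the mitochondrial pyruvate carrier, was higher by 1.55 (limma adjusted p = 2.9e-07). Its change was 0.63 with the length offset and 1.07 under library size scaling. Dhtkd1, a relative of Ogdh, had 0, 2.31 and 6.76 in IP, against 22.5, 18.4 and 17.1 in Input (-2.78), and since it passed the filter only through Input it had to be lower. Lower as well was Phkg1, the catalytic subunit of phosphorylase kinase, with 51.7, 72.0 and 61.4 in IP, against 207, 265 and 201 in Input (-1.85, limma adjusted p = 1.4e-05).

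Transcript length moved with these values. Over the 41 genes the Spearman correlation of the log2 fold change with the longest annotated transcript was -0.77, and over 14732 tested genes with a length it was -0.45, given as a description, since all genes share the same 6 libraries. The 22 higher genes had a median length of 1820.0 bases and the 10 lower ones 3696.5, beside 3094 for all tested genes with a length. With each library corrected by a smooth curve on length, 18 genes were higher and 11 lower, beside 31.0% and 25.1% of all genes in that fit, the median of the 41 was 0.095 and lay 0.069 over that of all genes, and 10 genes changed sign. Pdk4, Phka1, Suclg2, Aldoc, Pygb and Pygm kept changes between -4.84 and -1.13 under that correction. In all, 13 of the 41 share more than 10% of their 50-base stretches with other transcripts, and their reads may have been split or assigned elsewhere. Among the other 28, 12 were higher and 9 lower, or 42.9% and 32.1%, with a median of 0.051.

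**Figure D4:**
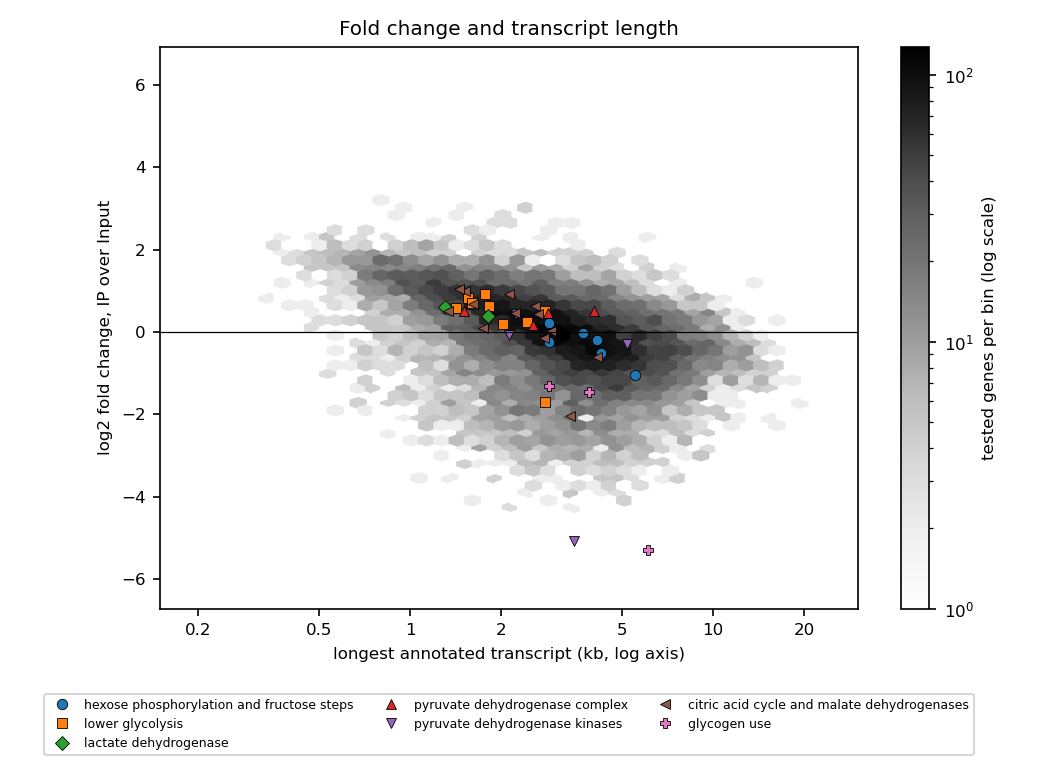
Log2 fold change of IP over Input against the longest annotated transcript in kilobases (log axis), for tested genes (grey bins, darker for more genes) and the 41 genes (symbols by role). Short transcripts lie higher, with a Spearman correlation of -0.77 over the 41 genes and -0.45 over 14732 tested genes, and Pdk4 and Phka1 lie under the cloud.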

How the data were processed

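RNA of 3 IP and 3 Input libraries was analysed. The deposited signal of a gene in a library is its read count after division by DESeq2 factors, made by the authors without a logarithm. The submitters' notes name STAR, DESeq2 and mm10, without versions, and the methods name TopHat and Cufflinks for a separate enrichment table. The counting program, gene annotation and strand setting were not given in the sources used here, so reads of antisense or overlapping genes cannot be told apart. Each table held 24972 entries, and 26 that carry a date in place of a symbol (0.188 to 0.32% of a library) were left out. Only about 20% of high values came within 0.1 of whole reads, so no count model was run.

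A value of 1 was added, values were put on the log2 scale, and limma 3.58.1 in R 4.3.3 compared IP with Input, with variances that follow the mean (prior degrees of freedom 8.55) and Benjamini-Hochberg adjustment over 14859 genes with at least 10 in at least 3 libraries. Fold changes are differences of means on the log2(value + 1) scale, so those of genes near 0 depend on the added 1. Higher and lower mean an adjusted p under 0.05, and enriched and depleted also more than 2-fold. Every gene of the list is named, with the values of each library for isozyme pairs and for the 5 highest and 5 lowest changes. Of the other pathway genes, the 2 most abundant and the 2 with the largest change each way were to be named, and 1 of these is not reported here. Genes and lists were chosen with earlier results of these data known. Replicate numbers mark pools, since Input was saved from the homogenate that gave the IP: deviations from group means correlated at 0.109, 0.095 and 0.0992 for the same number and at -0.0826 to -0.0133 for different numbers. The pool as a block, leave-outs, scalings, filters, pseudocounts and a length offset were alternatives. Lengths, coordinates and transcripts were read from GENCODE M21 (mm10), where 24464 names occurred as written and 58 through RefSeq synonyms. Aldolases were aligned with Biopython 1.88, exact tests used SciPy 1.17.1, and figures matplotlib 3.10.9. On simulated data with 14946 genes tested, the fit found 92%, 70%, 70% and 96% of genes changed by -2, -1, 1 and 2 (log2, 50 genes each), and 6 of its 170 calls were unchanged genes. The simulated noise was independent and normal, with the spread of the Input libraries, and few genes changed. Scaling shifts and length trends were not simulated, so errors from them were not measured.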

Additional observations from a re-analysis of the deposited data

How the results depend on the processing

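The replicate block (the pool as a term) left 22 genes higher and lowered the count of lower genes to 9, by Pdk1 alone (adjusted p = 0.054 by limma), and changed no other call of the 41. Scaling moved the counts: library size scaling gave 7 higher and 21 lower, pan-neuronal scaling 7 and 18, beside 17.6% and 50.5% of all tested genes, and both, like upper quartile scaling and the length offset, left 0 enriched. The members' median log2 fold change was -0.24, -0.20 and 0.018 under library size, pan-neuronal and upper quartile scaling, 0.095 with the length offset and 0.41 with 10 required in all 6 libraries, a filter that leaves out Hk2, Pdk4 and Phka1. Over the 9 leave-outs it ran from 0.23 to 0.31, with 19 to 23 higher, 8 to 11 lower, 0 to 2 enriched and 6 to 7 depleted.

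Log2 fold changes of single genes that changed sign were, under library size scaling, Gpi1 -0.26, Eno1 -0.30, Pkm -0.24, Ldha -0.10, Pdha1 -0.034, Dld -0.31, Pdk2 -0.047, Cs -0.47, Idh2 -0.39, Sucla2 -0.023 and Fh1 -0.039. Under pan-neuronal scaling they were Gpi1 -0.22, Eno1 -0.26, Pkm -0.20, Ldha -0.055, Dld -0.27, Pdk2 -0.0044, Cs -0.43 and Idh2 -0.35, and under upper quartile scaling Gpi1 -0.0019, Eno1 -0.046, Dld -0.052, Cs -0.21 and Idh2 -0.14. With the length offset they were Pfkl 0.27, Pfkp 0.18, Gapdh -0.059, Eno1 -0.12, Ldha -0.019, Ldhb -0.12, Pdhb -0.062, Pdk1 0.18, Idh2 -0.35 and Idh3g -0.18. Over the leave-outs, Pfkl ran from -0.13 to 0.032, Cs from -0.035 to 0.059, Idh2 from -0.018 to 0.15 and Pdk3 from -0.12 to 0.017, none of them past the test. Of the 41 genes, 28 kept call and direction in all 9 leave-outs.

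Among isozyme ratios the length offset gave Mdh1 over Mdh2 0.25 and Pygm over Pygb -0.15, both of opposite sign, and Pfkl over Pfkm 0.46, Pfkp over Pfkm 0.37, Aldoc over Aldoa -1.95, Ldhb over Ldha -0.098, Pdk1 over Pdk2 -0.057 and Pdk3 over Pdk2 -0.56. Leaving out single libraries moved Pfkp over Pfkm between -0.015 and 0.082 and Pdk3 over Pdk2 between -0.54 and -0.48. The cause of these shifts was not tested. Depth limits Phka1, Pdk4 and Hk2 most, with about 4, 7 and 18 reads over the IP libraries, and by the exact permutation test with 3 against 3 no ratio could reach p under 0.05.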
